A study of Homo sapiens with 18 samples.

Results

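CDKN1A, CDKN1B, CDKN2A, CDKN2B and GADD45A are 5 genes that hold back the cell cycle or answer DNA damage. They were examined at 4 loci in the hg19 build, since CDKN2A and CDKN2B lie side by side. The loci were CDKN1A at chr6:36644237-36655116, CDKN1B at chr12:12870302-12875305, CDKN2A with CDKN2B at chr9:21967751-22009312 and GADD45A at chr1:68150883-68153885. Each was taken with 10 kb on either side, and the peaks of 18 lists that overlapped these windows were collected. There were 73 such peaks among 501863. Merging peaks of one mark that overlapped gave 15 regions at the genes among 110980 over the whole series.

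The lists come from chromatin immunoprecipitation followed by sequencing (ChIP-seq) of NB4 cells, an established human line of acute promyelocytic leukemia that carries the PML-RARA fusion. Cells were left untreated (NT) or received maltonis, a small molecule derived from maltol, at 10 µM for 24 h, and no other agent or genotype distinguished the groups. 3 histone modifications were profiled, with 3 replicate libraries per condition and one peak list per library. Every value below describes this single line at one dose and one time. No gene annotation of the hg19 build was used, so the myeloid identity of the cells was not checked at marker genes.

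The proteins made by these genes act at different points of one control. p21 (CDKN1A) and p27 (CDKN1B) bind complexes of cyclins with cyclin-dependent kinases and block their activity, and p21 is induced after DNA damage. p16 and p15, made from CDKN2A and CDKN2B, bind CDK4 and CDK6 and keep the retinoblastoma protein active, and ARF is a second product of CDKN2A. GADD45A is induced by DNA damage and other stresses, binds p21 and PCNA, and takes part in the arrest before mitosis. H3K4me3 marks active promoters, H3K27ac marks active promoters and enhancers, and H3K9me3 marks silent heterochromatin.

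Promoter sequences are shown because the genes fall into loci with active marks and a locus with none, and the bases before each printed start are rich in G and C. RefSeq (GRCh38.p14) held entries for 4 of the 5 genes, with 2 starts for CDKN2A, and the 250 bases before each start are printed 5′ to 3′ on the strand of the gene. Capitals mark the GC box, GGGCGG or its reverse complement. These positions are in GRCh38 and were not converted to hg19, the build of the peaks. The CDKN1A sequence is chr6:36678464-36678713 (plus strand), that of CDKN1B is chr12:12717118-12717367 (plus strand), those of CDKN2A are chr9:21974858-21975107 and chr9:21995325-21995574 (minus strand), and that of CDKN2B is chr9:22009306-22009555 (minus strand).
CDKN1A: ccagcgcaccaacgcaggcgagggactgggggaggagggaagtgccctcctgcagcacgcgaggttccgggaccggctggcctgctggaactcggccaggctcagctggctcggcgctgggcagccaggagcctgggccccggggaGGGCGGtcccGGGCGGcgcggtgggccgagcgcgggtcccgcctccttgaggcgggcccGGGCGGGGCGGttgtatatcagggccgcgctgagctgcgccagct
CDKN1B: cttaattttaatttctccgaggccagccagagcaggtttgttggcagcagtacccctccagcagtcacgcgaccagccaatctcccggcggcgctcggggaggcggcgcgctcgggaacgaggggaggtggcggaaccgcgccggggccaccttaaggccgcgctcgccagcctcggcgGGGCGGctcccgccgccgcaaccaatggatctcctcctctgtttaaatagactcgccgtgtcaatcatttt
CDKN2A, start farther from CDKN2B: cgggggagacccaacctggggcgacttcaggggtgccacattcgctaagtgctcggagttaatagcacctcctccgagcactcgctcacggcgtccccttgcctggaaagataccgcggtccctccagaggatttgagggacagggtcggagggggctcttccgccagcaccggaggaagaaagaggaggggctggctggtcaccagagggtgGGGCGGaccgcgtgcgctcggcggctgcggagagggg
CDKN2A, start nearer to CDKN2B: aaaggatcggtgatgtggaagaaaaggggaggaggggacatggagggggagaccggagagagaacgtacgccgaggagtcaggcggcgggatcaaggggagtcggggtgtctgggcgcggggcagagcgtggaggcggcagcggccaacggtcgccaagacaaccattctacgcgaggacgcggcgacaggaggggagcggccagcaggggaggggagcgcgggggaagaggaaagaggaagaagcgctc
CDKN2B: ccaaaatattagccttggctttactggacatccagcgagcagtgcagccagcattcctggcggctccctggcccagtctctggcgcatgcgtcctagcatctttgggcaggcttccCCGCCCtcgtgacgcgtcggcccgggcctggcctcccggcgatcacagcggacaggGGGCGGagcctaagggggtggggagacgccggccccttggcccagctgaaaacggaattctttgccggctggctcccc

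All 5 windows were rich in G and C. CDKN1A reached 76.4% GC, against 64.4% at CDKN1B, 66.8% at both CDKN2A starts, 66.4% at CDKN2B and a median of 58% over 35116 RefSeq promoter windows. With overlapping matches counted on both strands, CDKN1A had 4 GC boxes, CDKN2B had 2, CDKN1B and the CDKN2A start farther from CDKN2B had 1 each, and the other CDKN2A start had 0. A GC box was present in 42.64% of all promoter windows of RefSeq. CDKN1B alone among the 5 windows held the CCAAT box (letters CCAAT, 2 matches, present in 32.01% of all windows). The TATA box (letters TATAAA, present in 10.72%) matched none of the 5. Each match describes letters in a window and nothing about binding. GADD45A is named here without a sequence.

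The size of the lists sets the precision of what follows. Reads inside peaks ran from 17974940 to 20773316 per H3K27ac library and from 2595814 to 3366296 per H3K9me3 library, while the H3K4me3 lists give fold enrichment and −log10 q without read counts. Regions called in all 6 libraries of a mark were tested with edgeR (H3K27ac, reads) or limma (H3K4me3, log2 fold enrichment), and a region was called where its FDR (false discovery rate) did not exceed 0.01 and its log2 change was 0.58 or more in size. Over 20018 H3K27ac regions, 3840 were called with fewer reads after maltonis (19.2%) and 1637 with more (8.18%). The caller drew 5638 of these regions shorter in each treated library than in each untreated one. With the called length as an offset the split turned to 459 fewer and 1178 more, with a median log2 change of 0.16. When the scaling factors were also taken from read densities, it was 909 fewer and 436 more, with a median of -0.0013. Over 12470 H3K4me3 regions, 269 were called lower (2.16%) and 12 higher around a median log2 change of -0.14, and centring each library on its median gave 60 lower and 56 higher. H3K9me3 had no region at these genes called in all 6 libraries, so none entered its test.

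CDKN1A was the one gene with regions called between the conditions. Of its 3 H3K27ac regions, 2 neighbouring ones were called with fewer reads after maltonis. They were the only called regions among the 6 of H3K27ac and 4 of H3K4me3 tested at the genes. Over all tested regions, 19.2% were called with fewer H3K27ac reads and 8.18% with more, and 2.16% with lower H3K4me3. The H3K4me3 peak at the gene had lower fold enrichment and −log10 q in each treated library without reaching the size needed for a call, and an H3K9me3 peak overlapped it in each treated list and in no untreated list.

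**Figure D1:**
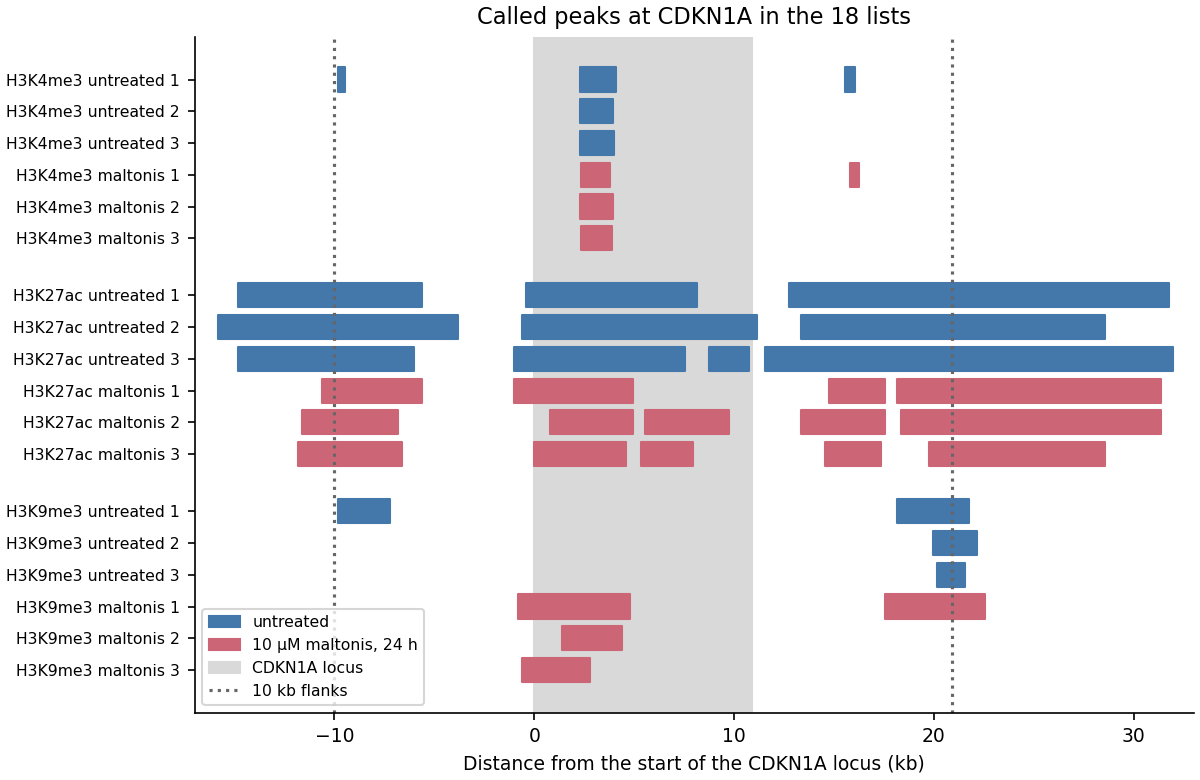
Each bar is a peak of one list, placed by its distance in kb from the start of the CDKN1A locus (grey band), with the 10 kb flanks dotted; blue is untreated and red is 10 µM maltonis for 24 h. In the H3K27ac region over the gene the bars of a list add up to 6000 to 8400 bp in treated cells and 8600 to 11800 bp in untreated cells, and the H3K9me3 bars on the first part of the gene appear in the 3 treated lists only.

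The H3K27ac region over the gene spans chr6:36643201-36655400. It held 796, 916 and 871 reads in the untreated libraries and 259, 373 and 316 in the treated ones. Every treated library lay far below every untreated one. Reads lower in each treated library, by any amount, were found in 35.8% of all tested regions. The log2 change was -1.41 (SE 0.0863, edgeR, FDR = 8.17e-07). Part of the drop in reads lay in a shorter call, since 8600, 11800 and 10600 bp were called in untreated cells and 6000, 8400 and 7200 bp in treated cells. The density of reads fell as well. It was 92.6, 77.6 and 82.2 reads per kb of called length in untreated cells and 43.2, 44.4 and 43.9 in treated cells. Densities here and below are counted reads over called length, not scaled for library size. A density lower in each treated library than in each untreated one occurred in 12.5% of all tested regions. The close grouping of the treated values came from joined peaks. Maltonis replicates 2 and 3 each joined a denser peak (60.2 and 52.2 reads per kb) with a sparser one (28.6 and 29.2). Untreated replicate 3 did so too (91.7 and 41). The sparser peak of maltonis replicate 3 had an island score of 29.5, under the lowest score of every untreated list (36.2 to 39.9). The lowest scores of the treated lists were 27.1 to 32.7. With the called length as an offset the log2 change was -0.90 (SE 0.131, edgeR, FDR = 0.00194), and with scaling factors taken from the read densities it was -1.05 (SE 0.125, edgeR, FDR = 0.000953). The call therefore held in both fits. When peaks within 1000 bp were merged, this region joined the next one downstream and the log2 change of the joined region was -0.55, under the size needed for a call.

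The H3K27ac region before the gene spans chr6:36628401-36640400. Its reads were 744, 883 and 760 in untreated cells and 337, 377 and 347 in treated cells, again with a wide gap between the groups. The log2 change was -1.12 (SE 0.0743, edgeR, FDR = 1.25e-06). Here the difference went with length, which was 9200, 12000 and 8800 bp against 5000, 4800 and 5200 bp. Called length was lower in each treated library in 28.2% of all tested regions. Density overlapped between the conditions, with 80.9, 73.6 and 86.4 reads per kb in untreated cells and 67.4, 78.5 and 66.7 in treated cells. The call was lost with the called length as an offset (log2 change -0.14, edgeR, FDR = 0.425) and with scaling from read densities (-0.29, edgeR, FDR = 0.112). The region was thus called narrower in treated cells. Density was averaged over the length called in each list, so it cannot show whether signal changed over the same bases. Island scores, the enrichment summed by the caller, were 2758, 3730 and 3601 in untreated cells. They were 405, 429 and 373 in treated cells.

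The H3K27ac region after the gene, at chr6:36655801-36676200, was the most read of the 3 and had the smallest fitted difference. It held 2165, 2231 and 2216 reads in untreated cells and 1650, 2013 and 1623 in treated cells. Reads were lower in each treated library, as in 35.8% of all tested regions. The log2 change of -0.28 (SE 0.0475, edgeR, FDR = 0.000538) was under the size needed for a call. Its called length was 19000, 17800 and 20400 bp untreated and 16000, 17200 and 11600 bp treated. It was lower in each treated library, as in 28.2% of regions. Its density overlapped between conditions, at 109 to 125 reads per kb untreated and 103 to 140 treated, and the log2 change with the called length as an offset was 0.09 (edgeR, FDR = 0.577). All 3 regions at CDKN1A were thus shorter in each treated library, and density was lower in each treated library over the gene only.

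Taken over the whole CDKN1A window, H3K27ac covered 21080, 25480 and 23880 bp in untreated cells and 15880, 18280 and 14480 bp in treated cells. Regions overlapping the window held 190, 194 and 191 reads per 1000000 reads in peaks in untreated cells and 125, 133 and 119 in treated cells. Both measures separated the conditions, and each gave p = 0.1 in the exact two-sided permutation test, the smallest p that 3 against 3 libraries allow (adjusted p = 0.35 over the lengths and 0.133 over the read shares compared). The whole H3K27ac lists also covered less after maltonis. They covered 217.8, 229.8 and 226.7 Mb in untreated cells and 185.0, 182.9 and 171.9 Mb in treated cells. A shorter covered length at the window was therefore not particular to CDKN1A. Inside the CDKN1A locus without flanks, covered length differed by -2693 bp and overlapped between conditions (exact permutation test, p = 0.2).

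**Figure D2:**
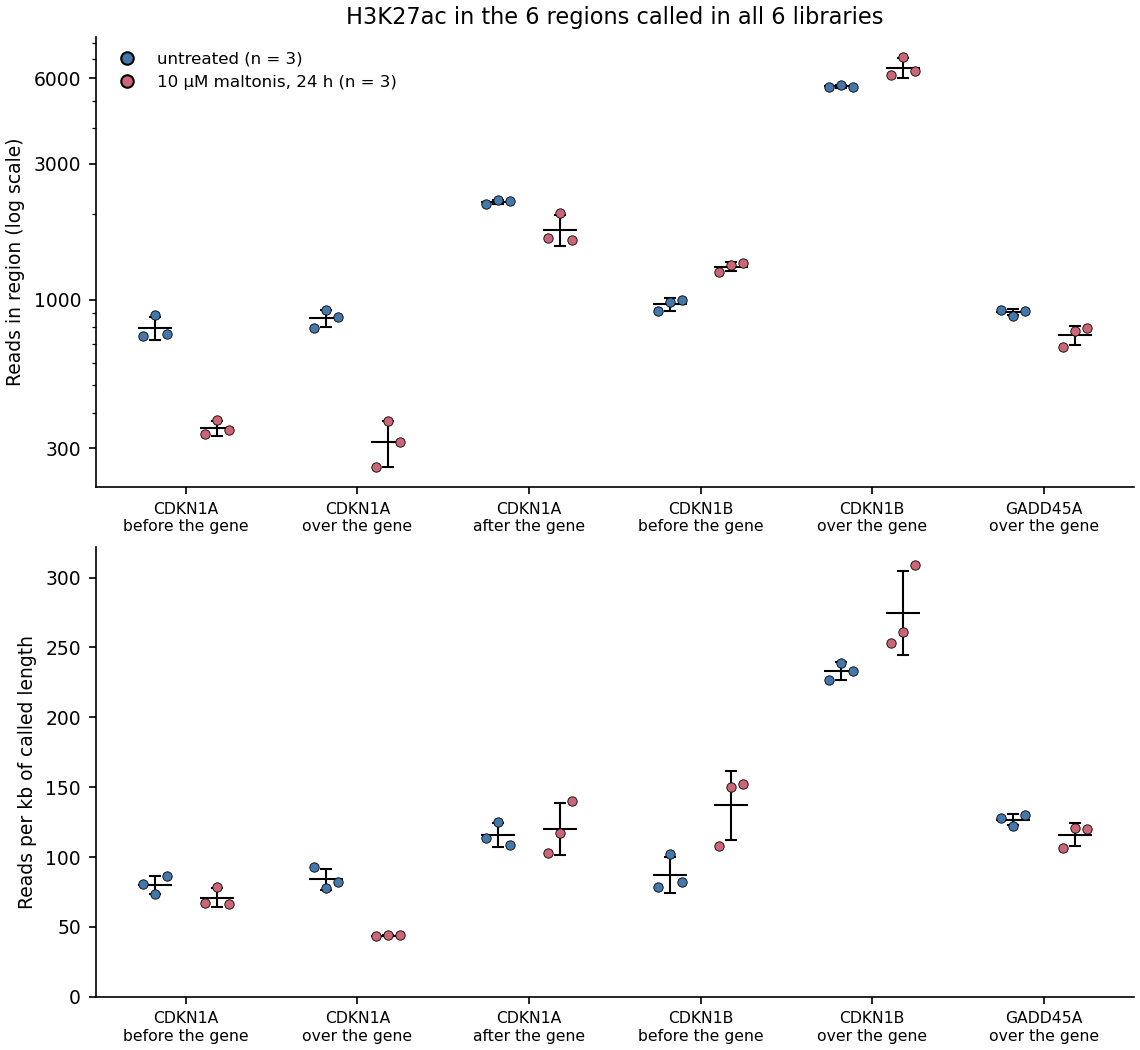
Points are single libraries, the horizontal mark is the mean and the whiskers are ± SD (n = 3 per condition); the upper panel gives H3K27ac reads per region on a log scale and the lower panel reads per kb of called length from 0. Over CDKN1A the treated points lie at 43.2 to 44.4 reads per kb, below the untreated points at 77.6 to 92.6, while over CDKN1B the treated points lie above the untreated ones.

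H3K4me3 at CDKN1A had one region in all 6 lists, chr6:36646501-36648341, which lies inside the locus. Fold enrichment over the local background was 3.48, 3.68 and 3.63 in untreated cells and 2.68, 2.75 and 3.20 in treated cells. Each treated library was lower, as in 52.8% of all tested H3K4me3 regions. The log2 difference was -0.33 (SE 0.0730, limma, FDR = 0.00791), so the region passed the FDR limit but not the size limit, and after centring each library on its median it was -0.17 (limma, FDR = 0.133). The −log10 q was 11.5, 10.7 and 11.9 in untreated cells and 2.55, 2.53 and 4.65 in treated cells, a separation present in 39.6% of regions. Within its own list the peak stood at the 43.7th to 46.6th percentile of −log10 q in untreated cells and at the 17.4th to 30.1st in treated cells. The peak was also shorter, at 1841, 1674 and 1707 bp untreated and 1418, 1653 and 1542 bp treated. A shorter call in each treated library was uncommon for this mark, seen in 3.99% of tested regions, against 54.8% with a longer call in each treated library. Small further peaks lay in the flanks. One at chr6:36634421-36634761 was called in untreated replicate 1 only, and one at chr6:36659782-36660464 in untreated replicate 1 and maltonis replicate 1. They made the covered length of the window depend on a single library, as the mean difference of -353 bp became -13.5 bp without untreated replicate 1.

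**Figure D3:**
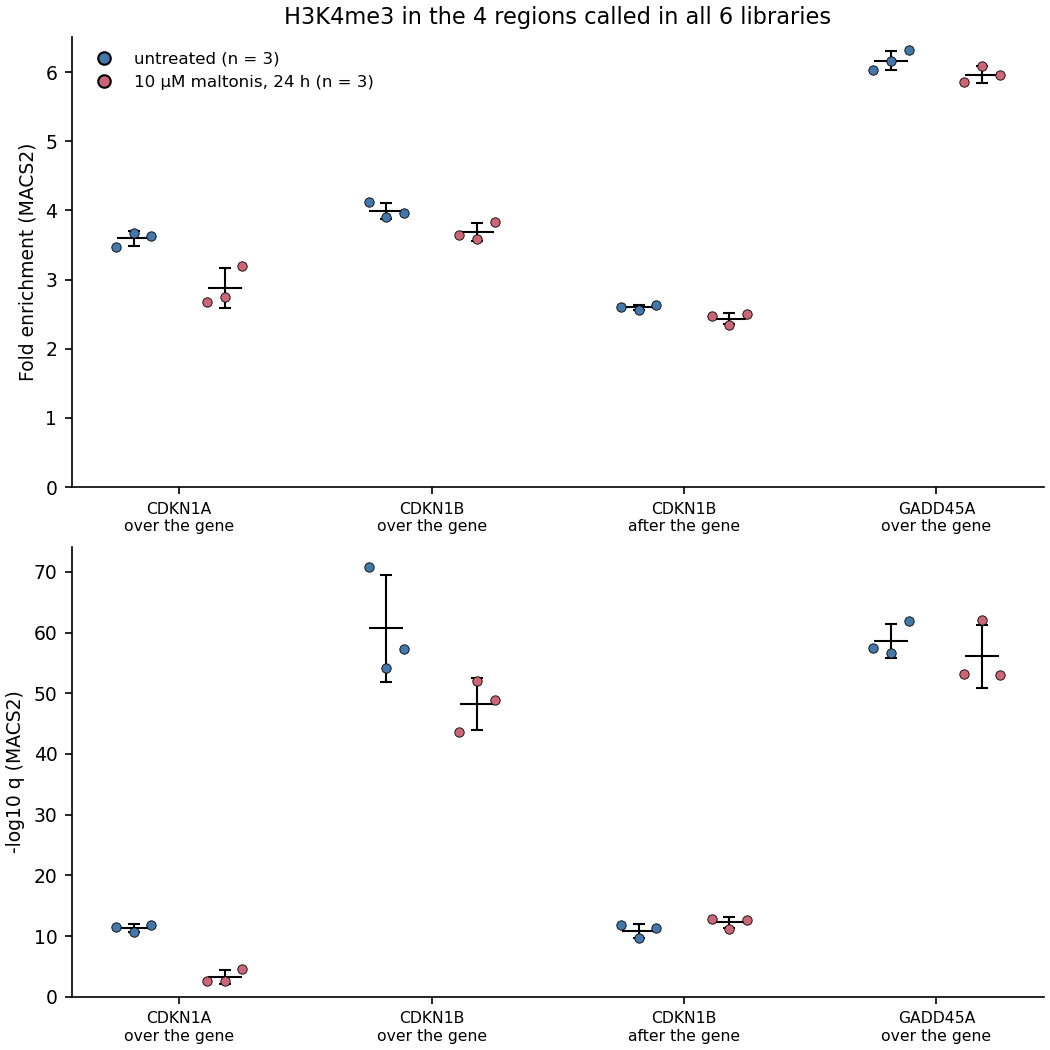
Points are single libraries with mean ± SD (n = 3 per condition); the upper panel gives the MACS2 fold enrichment and the lower panel its −log10 q for the 4 H3K4me3 regions called in all 6 lists, both from 0. At CDKN1A the treated −log10 q lies between 2.53 and 4.65, under the untreated 10.7 to 11.9. The start of CDKN1B is lower in each treated list (43.6 to 52.1 against 54.1 to 70.8), and the other 2 regions overlap in −log10 q. A −log10 q lower in each treated list was found in 39.6% of all tested regions. Within its list, the percentile of the peak at the start of CDKN1B overlaps between conditions (83.9 to 88.5 untreated, 83.0 to 86.9 treated).

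H3K9me3 was called at the start of CDKN1A in treated cells only. The merged region, chr6:36643401-36649000, had a peak in all 3 treated lists and in 0 of 3 untreated lists, a pattern found in 367 of 46996 merged H3K9me3 regions (0.781%). The peaks covered 5600, 3000 and 3400 bp and held 71, 46 and 41 reads, or 12.7, 15.3 and 12.1 reads per kb. They shared 1841, 1841 and 500 bp with the 1841 bp H3K4me3 region. These were weak peaks. Their island scores, the enrichment summed by the caller, were 52.7, 34.0 and 32.0, at the 42.6th, 4.57th and 12.4th percentile of their lists, and the lowest score listed ran from 28.8 to 33.6 over the 6 libraries. At a common lowest score of 33.6 the peak of maltonis replicate 3 was dropped. The lists give no reads outside peaks, so the level in untreated cells is known only to lie under the caller's limit. A fit that set untreated libraries to 0 reads did not call the region (edgeR, FDR = 0.179). That fit called 0 regions lower and 0 higher among 31235, so the missing call says nothing particular about CDKN1A.

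The other H3K9me3 peaks near CDKN1A lay in its flanks. A region at chr6:36661801-36666800 was called in all 3 untreated lists, with 59, 45 and 33 reads, and in maltonis replicate 1, with 60 reads. A peak at chr6:36634401-36637000 was called in untreated replicate 1 alone, with 35 reads. Over the whole window the covered length of H3K9me3 was 5316, 916 and 716 bp in untreated cells and 8916, 3000 and 3400 bp in treated cells, which overlapped (exact permutation test, p = 0.3, adjusted p = 0.525). The mean difference of 2789 bp became 884 bp without maltonis replicate 1 and 4289 bp without untreated replicate 1. For the locus without flanks the groups separated, by 3509 bp (exact permutation test, p = 0.1).

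CDKN1B, whose product p27 restrains entry into S phase, kept one of the strongest H3K27ac regions of the lists. The region spans chr12:12864401-12892800, and its strongest peak stood above the 99.6th percentile of island scores in every library. Reads were 5568, 5693 and 5591 in untreated cells and 6134, 7109 and 6364 in treated cells. Treated libraries were higher throughout, as in 29.0% of all tested regions. The log2 change of 0.26 (SE 0.0227, edgeR, FDR = 6.86e-06) was small and was not called. Read density was 226, 239 and 233 per kb untreated and 253, 261 and 309 treated, also without overlap, which was true of 25.5% of regions. With the called length as an offset the log2 change was 0.29 (edgeR, FDR = 0.0235), and with scaling from read densities 0.12 (edgeR, FDR = 0.218).

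A second H3K27ac region lay before CDKN1B, at chr12:12845001-12862200. Of its peaks only one, in untreated replicate 1, reached into the window, so it lies mostly outside. It held 909, 980 and 998 reads in untreated cells and 1255, 1323 and 1341 in treated cells, all higher, as in 29.0% of regions. The log2 change was 0.49 (SE 0.0490, edgeR, FDR = 1.77e-05), under the size needed for a call. It was 0.69 with the called length as an offset (edgeR, FDR = 0.00782), which passed both limits, and was 0.52 with scaling from read densities (edgeR, FDR = 0.0221), which did not pass them. Over the CDKN1B window the share of reads was 282, 269 and 270 per 1000000 in untreated cells and 331, 342 and 321 in treated cells (exact permutation test, p = 0.1, adjusted p = 0.133). Covered length overlapped between the conditions.

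H3K4me3 had 2 regions at CDKN1B in all 6 lists. The one over the start of the gene, chr12:12869755-12872461, had a fold enrichment of 4.12, 3.90 and 3.96 in untreated cells and 3.64, 3.59 and 3.83 in treated cells. Each treated library was lower, as in 52.8% of all tested H3K4me3 regions. The log2 difference of -0.12 (SE 0.0506, limma, FDR = 0.0907) was close to the median of all regions. It turned to 0.04 after centring (limma, FDR = 0.572). The second region, chr12:12876282-12879950, lies past the gene. It was weaker, at 2.60, 2.56 and 2.64 untreated and 2.47, 2.34 and 2.50 treated (log2 difference -0.09, limma, FDR = 0.15). Its called length was greater in each treated library, at 3493, 3566 and 3669 bp against 3273, 3337 and 3265 bp, as in 54.8% of regions. APOLD1 is the next gene after CDKN1B in RefSeq order, and without an hg19 annotation the peak was not assigned to either. No H3K9me3 list had a peak in the CDKN1B window, and the stretch free of H3K9me3 peaks in all 6 lists was 116 kb long.

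GADD45A, the damage-induced gene, had the highest H3K4me3 fold enrichment of the genes and one region of each active mark. H3K4me3 at chr1:68150978-68152488 was 6.03, 6.16 and 6.31 in untreated cells and 5.85, 6.09 and 5.96 in treated cells. The groups overlapped, and the log2 difference was -0.05 (SE 0.0452, limma, FDR = 0.407). It turned to 0.11 after centring (limma, FDR = 0.088). Within its list the peak ranked at the 82.0th to 88.5th percentile in untreated cells and at the 88.8th to 91.0th in treated cells, higher in each treated library as in 19.4% of regions. H3K27ac at chr1:68148401-68156000 held 922, 879 and 909 reads in untreated cells and 682, 774 and 794 in treated cells. Each treated library was lower, as in 35.8% of all tested regions. The log2 change of -0.22 (SE 0.0598, edgeR, FDR = 0.00774) was under the size needed for a call, and with the called length as an offset it was -0.08 (edgeR, FDR = 0.605). Called length was 7200, 7200 and 7000 bp untreated and 6400, 6400 and 6600 bp treated, lower in each treated library as in 28.2% of regions. Density was 128, 122 and 130 reads per kb untreated and 107, 121 and 120 treated. It was also lower in each treated library, as in 12.5% of regions, but these densities were not scaled for library size. Maltonis replicate 1 had the fewest H3K27ac reads in peaks, 17974940. With scaling from read densities the log2 change was -0.24 (edgeR, FDR = 0.123), which was not called. No H3K9me3 list had a peak in the GADD45A window, and the surrounding stretch free of this mark measured 536 kb.

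**Figure D4:**
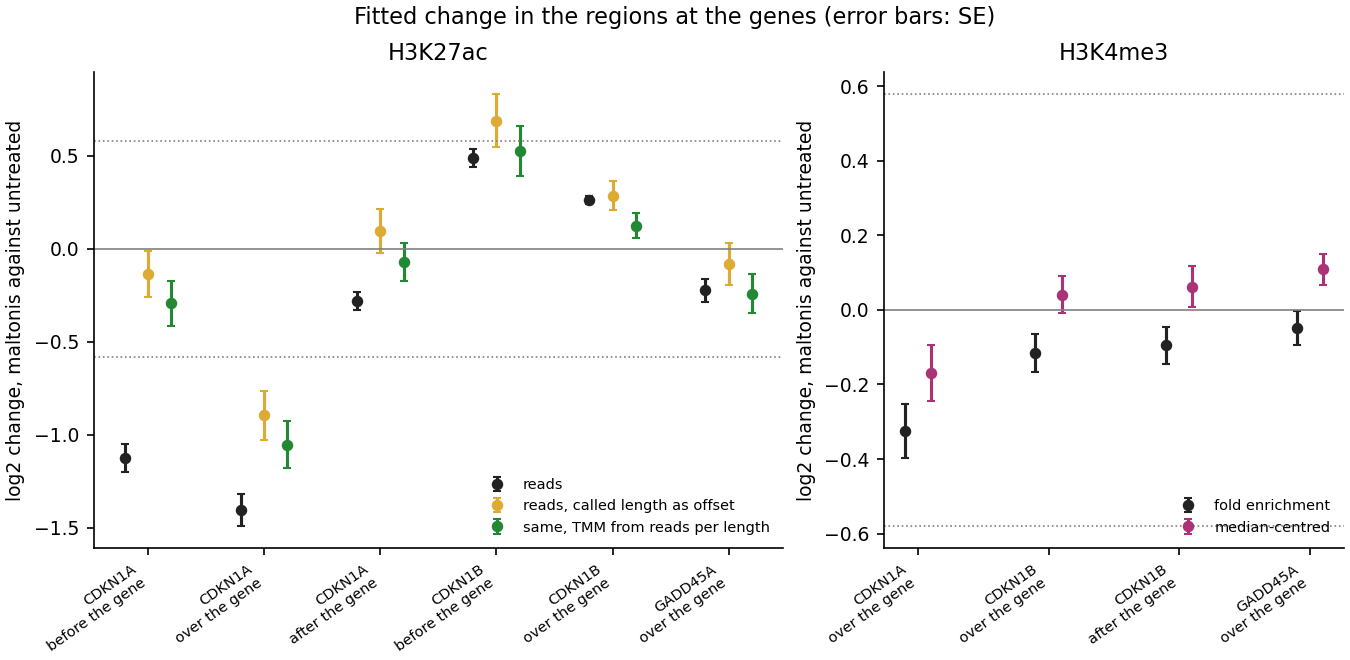
Fitted log2 change (maltonis against untreated, error bars SE, 3 libraries per condition) for the 6 H3K27ac and 4 H3K4me3 regions under the scalings named in the key; dotted lines mark ±0.58. The region over CDKN1A stays under the lower dotted line in all 3 H3K27ac fits, the region before CDKN1A does so in the fit to reads only, and all 4 H3K4me3 regions lie within ±0.58.

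The region over CDKN1B had the highest H3K27ac density in both conditions. In untreated cells the mean H3K27ac density was 233 ± 6.43 reads per kb over CDKN1B (SD, n = 3), 127 ± 4.07 at GADD45A, 116 ± 8.54 after CDKN1A, 87.4 ± 12.8 before CDKN1B, 84.1 ± 7.65 over CDKN1A and 80.3 ± 6.41 before CDKN1A. GADD45A and the region after CDKN1A overlapped, as did the last 3 among themselves. In treated cells the means were 275 ± 30.0 over CDKN1B, 137 ± 24.9 before CDKN1B, 120 ± 18.6 after CDKN1A, 116 ± 8.12 at GADD45A, 70.9 ± 6.63 before CDKN1A and 43.8 ± 0.622 over CDKN1A. The region over CDKN1A was then below all others, and the regions before CDKN1B, after CDKN1A and at GADD45A overlapped. H3K4me3 fold enrichment kept one order in both conditions, with GADD45A first (6.17 ± 0.142 untreated, 5.97 ± 0.118 treated), then the start of CDKN1B (3.99 ± 0.116 and 3.69 ± 0.126), CDKN1A (3.60 ± 0.106 and 2.88 ± 0.283) and the region after CDKN1B (2.60 ± 0.0376 and 2.44 ± 0.0847), and no neighbours in it overlapped.

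CDKN2A and CDKN2B, the genes of p16, ARF and p15, had no peak of any mark in any of the 18 lists. The window was the only one of the 4 without a peak, although the 3 printed promoters of these genes were as rich in G and C as that of CDKN1B. The gap was far longer than the locus. Over all lists together no peak was called on chr9:21466401-26889400, a stretch of 5423 kb that begins 501 kb before the locus and ends 4880 kb after it. Its borders were almost the same for each mark, with free stretches of 5425 kb for H3K4me3, 5426 kb for H3K27ac and 5451 kb for H3K9me3. The stretch over all marks was 5424 kb in the untreated lists and 5423 kb in the treated ones.

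Set against the genome, this stretch ranked 5th in length among 70129 stretches between peaks of any list. The 4 longer ones lay on chromosome 1 (21050 kb), chromosome 9 (21012 kb), chromosome 16 (11104 kb) and X (9304 kb), and those on chromosomes 1, 9 and 16 take in the centromere. The next after it was a stretch of 3938 kb on X. In RefSeq order MTAP precedes CDKN2A, and DMRTA1 and ELAVL2 follow CDKN2B. Neither input reads nor DNA copy number was among the values used, so an interval with unmarked chromatin and one missing from the cells cannot be told apart here. No comparison between untreated and treated cells was possible at CDKN2A and CDKN2B.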

How the data were processed

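ChIP-seq peak lists of H3K4me3, H3K27ac and H3K9me3 from NB4 cells were used, 3 libraries per condition, grouped by sample title. The authors aligned reads (BWA, SAMtools, hg19 per the submitters' notes) and called peaks per library with MACS2 (H3K4me3) or epic2, a SICER implementation. Versions, settings and controls were not given in the sources used here. The deposited H3K4me3 lists hold fold enrichment (a ratio), −log10 p and −log10 q values and a score per peak. The deposited epic2 lists hold a read count, not normalised, and an island score per region.

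The 5 genes, their windows and the tests were chosen with earlier results of these data known. Every region overlapping the windows was named. Peaks of one mark were merged on 1 bp of overlap, and counts were summed per region and library. Regions called in all 6 libraries were fitted over the whole genome with edgeR 4.0.16 (TMM, quasi-likelihood) or limma 3.58.1 (log2 fold enrichment, no pseudocount), with Benjamini-Hochberg adjustment. SEs of edgeR were derived from its F statistic. Both fits were tested on simulated data. Covered length and reads per 1000000 reads in peaks per window were compared by exact two-sided permutation over 20 assignments of libraries. The replicates are biological triplicates of one line per the study's methods. Same-numbered libraries did not deviate together, with correlations from -0.02 to 0.03. The alternatives were DESeq2 1.42.0, other scalings, filters, merging distances, flanks and peak thresholds, and leaving out each library. Motifs and GC content came from RefSeq promoter windows. Other genes of the pathway and cell type markers need an hg19 annotation and were not analysed here. R 4.3.3, Python 3.11.15 and pandas 2.3.3 were used.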

Additional observations from a re-analysis of the deposited data

How the results depend on the processing

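Of the calls at these genes, the one of lower H3K27ac over CDKN1A was lost only when peaks within 1000 bp were merged, and the one before CDKN1A only with the called length as an offset under either scaling, so that 1 of the 2 calls was left in each of these 3 fits. With the called length as an offset 1 region, before CDKN1B, was called higher against 0 otherwise, and the log2 change after CDKN1A was 0.0935 in place of -0.28. The cause was not tested. Centring on the median turned H3K4me3 at GADD45A to 0.11 and the regions at and after CDKN1B to 0.0410 and 0.0621, and fold enrichment times length turned the last to 0.0249 (log2). Counts over all regions were 459 fewer and 1178 more for H3K27ac with the offset, 909 and 436 with the offset and scaling from densities, and for H3K4me3 60 lower and 56 higher when centred, 32 and 54 for fold enrichment times length, and 101 and 1 with a pseudocount of 1. Covered H3K4me3 at CDKN1A differed by -203 bp without flanks, -1227 bp in the strongest 75% of peaks and -1741 bp at a −log10 q of at least 10, each without overlap between conditions, and by -532 to -13.5 bp when 1 library was left out. At CDKN1B the small difference of -18.7 bp became 92 bp with 20 kb flanks and 1094 bp at a −log10 q of at least 10, and ran from -111 to 57.8 bp without 1 library. At that −log10 q the groups overlapped (exact permutation test, p = 0.9). The cut dropped the peak after CDKN1B in untreated replicate 2, whose −log10 q was 9.61. Covered H3K27ac without flanks differed by -2693 bp at CDKN1A and 0 bp at GADD45A, and at CDKN1B by -1913 to -428 bp without 1 library. H3K9me3 at CDKN1A without flanks differed by 3509 bp and 17.5 reads per 1000000, and in the strongest 75% of peaks by -3.46 reads per 1000000. With the 10 kb flanks and all peaks, the H3K9me3 differences at CDKN1A of 2789 bp and 5.92 reads per 1000000 ran without 1 library from 884 to 4289 bp and from -2.56 to 12 reads per 1000000. With the replicate number as a block, 2 H3K27ac regions were called lower and 0 higher and 0 H3K4me3 regions were called, as without it, and the log2 change over CDKN1A was -1.41. Same-numbered libraries showed no shared deviation, but 3 libraries per condition cannot show whether the numbers pair them. The block changed no call. The H3K9me3 alternatives gave no tested region at these genes except the fit to regions called in at least 2 of 3 libraries of either condition. A comparison of covered length and read share per window at a common lowest island score was chosen after seeing the data, as was scaling from read densities. The region fits were not run at a common score. The lists hold reads inside peaks only, so lower levels than the caller's limit were not seen.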

Other observations

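The overlap of a treated-only H3K9me3 peak with a region of lower H3K27ac, seen at CDKN1A, was counted over the genome after it had been noticed there. Of 20018 tested H3K27ac regions, 230 overlapped an H3K9me3 region called in the 3 treated lists and in 0 untreated lists (1.15%). Among the 3840 with fewer H3K27ac reads there were 30 such overlaps (0.781%), and among the 1637 with more reads there were 18 (1.10%). The share was lower among regions called with fewer reads than among all tested regions, and this difference was not tested.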
